A study of Mus musculus with 6 samples.

Results

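Postsynaptic scaffold and calcium/calmodulin-dependent protein kinase II (CaMKII) genes were followed in mouse stroke infarcts. The group holds 35 genes chosen by name out of the 46078 genes with an entry in the count tables: 4 *Dlg* genes, 4 *Dlgap* genes, 3 *Shank* genes, 3 *Homer* genes, the 4 CaMKII subunit genes, 3 neuroligins, *Grip1* and *Grip2*, *Cnih2* and *Cnih3*, *Lrrtm1* and *Lrrtm2*, *Iqsec1* and *Iqsec2*, and *Pick1*, *Baiap2*, *Lrrc7*, *Gphn*, *Nrgn* and *Adcy1*. Each symbol matched 1 Ensembl gene, and all 35 were among the 15554 genes with enough reads to be tested. RNA sequencing covered 3 infarcts and 3 contralateral cortices, 1 library each, from wild type C57BL/6J mice labelled as 3 months old and sampled 7 weeks after stroke. Per the study's methods the mice were male, the middle cerebral artery was occluded permanently at a distal site and followed by hypoxia, and infarcts were found by eye and cut out together with the matching part of the opposite hemisphere. The contralateral cortex is thus tissue of a stroked brain, and no brain without stroke entered the comparison. The labels number the libraries 1 to 3 in each region but do not say which infarct and which cortex shared a mouse, or that the libraries of a region came from separate mice, so *p* values describe the spread between these libraries. The methods also state that brain tissue for sequencing came from vehicle- and drug-treated mice, and the labels name no treatment for these 6 libraries. The paper describes its comparison of infarct and contralateral cortex in young adult mice without a drug. It reports sequencing after drug treatment in aged mice only.

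Counts on genes totaled between 12146959 and 13427057 in infarcts and between 11943570 and 19933962 in contralateral cortices. Levels are given as counts per 1000000 counts on genes (CPM), scaled between libraries by trimmed mean of M values (TMM), always in the order of libraries 1, 2 and 3. The labels were checked against marker genes. All 15 pan-neuronal marker genes, such as *Snap25* and *Rbfox3*, were lower in infarcts and their summed level was 835, 1206 and 2175 CPM there, against 10639 to 11608 CPM in contralateral cortices. Infarcts thus kept 7.56%, 10.9% and 19.7% of the contralateral mean, with infarct 3 the most neuronal of the 3. All 14 microglia and macrophage genes were higher, with sums of 15945, 12911 and 10807 CPM in infarcts against 282 to 388 CPM, and all 10 fibroblast genes were higher, with sums of 10537, 10571 and 8597 CPM against 229.7 to 303 CPM. Of 9 lymphocyte and plasma cell genes, all were higher in infarcts, and *Cd8a* had no count in any contralateral cortex.

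The postsynaptic density is a protein mat beneath the membrane of excitatory synapses. Membrane-associated guanylate kinases of the DLG family hold glutamate receptors at its surface, DLGAP proteins link them to SHANK, and SHANK and HOMER form a deeper lattice toward metabotropic receptors, internal calcium stores and actin. CaMKII, a large holoenzyme assembled from alpha, beta, gamma and delta subunits, is among the most abundant proteins of this mat in forebrain, where calcium entry through NMDA receptors activates it and starts long-term potentiation.

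The *Homer* genes were the only family in which a member moved against its paralogs, so their upstream sequences are shown. They come from the RefSeq promoter table on GRCm38.p6, which held 28 of the 35 genes. *Dlgap2*, *Shank1*, *Shank2*, *Camk2a*, *Camk2g*, *Nlgn3* and *Lrrtm2* are named only. *Homer1* and *Homer2* had 2 promoter windows each there, and *Homer3* had 1. For every gene only the window with the most upstream start was used. Each stretch is written 5′ to 3′ on the strand of its gene and ends at or before the RefSeq transcription start, without bases that GENCODE M21 places in an exon, and capitals mark a motif. The motifs searched on both strands of the 250 bases before the start were TGACG, the core of the cyclic AMP response element, the full palindrome TGACGTCA, which contains TGACG on each strand, and GGGCGG, the GC box, which overlaps neither.
Homer1 (chr13:93303507-93303756, plus strand, inside the GENCODE gene but outside its exons): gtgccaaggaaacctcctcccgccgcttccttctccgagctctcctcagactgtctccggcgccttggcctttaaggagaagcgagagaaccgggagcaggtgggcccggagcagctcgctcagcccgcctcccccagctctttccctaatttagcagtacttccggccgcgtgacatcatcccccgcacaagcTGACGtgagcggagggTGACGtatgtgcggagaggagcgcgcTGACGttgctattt
Homer2 (chr7:81706945-81707175, minus strand, inside the GENCODE gene but outside its exons): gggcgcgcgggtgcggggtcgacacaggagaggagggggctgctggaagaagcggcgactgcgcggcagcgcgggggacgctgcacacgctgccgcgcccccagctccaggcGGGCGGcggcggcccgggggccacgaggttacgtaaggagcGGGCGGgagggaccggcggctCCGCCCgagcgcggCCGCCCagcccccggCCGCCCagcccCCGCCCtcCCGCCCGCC
Homer3 (chr8:70282749-70282826, plus strand, next to the 5′ end of the GENCODE gene): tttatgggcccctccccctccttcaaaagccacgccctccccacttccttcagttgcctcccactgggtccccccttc
*Homer1* held TGACG with first bases at -56, -40 and -14 from the start. TGACG occurred in 17.8% of 27025 promoters of the table and in 2 of the 28 promoters of this group, those of *Homer1* and *Dlg3*. The full TGACGTCA was in 1.6% of all promoters and in 0 of these 28. *Homer2* held GGGCGG, or its reverse complement CCGCCC, 8 times, the last match running past the printed stretch. *Homer3* held 4 matches, all in the 172 exon bases left out, so its printed stretch has no capitals. GGGCGG was in 33.0% of all promoters and in 18 of these 28 (64.3%). A match is a description of the letters and not a bound site.

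Most of the postsynaptic scaffold and CaMKII genes fell in infarcts, and *Homer3* rose. Of 35 genes, 32 were lower at an adjusted *p* under 0.05 (quasi-likelihood test of edgeR over all tested genes, Benjamini-Hochberg method), against 30.8% of all tested genes, and 1, *Homer3*, was higher, against 34.2% of all tested genes. With the added requirement of a fold change above 2, 29 (82.9%) were lower and 1 was higher, while the shares over all tested genes were 20.9% and 25.7%. *Cnih2* and *Pick1* did not pass. For 34 of 35 genes the 3 infarcts and the 3 contralateral cortices did not overlap, as for 72.3% of all tested genes. The median log2 fold change, infarct minus contralateral, was -2.21 in this group and 0.03 over all genes. In bulk tissue fewer neurons and less RNA per neuron cannot be told apart. The pan-neuronal list fell beside these genes, with 15 of 15 lower and a median log2 fold change of -2.94, and its part in the falls was not tested. Ratios to it within each library are given further on.

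**Figure D1:**
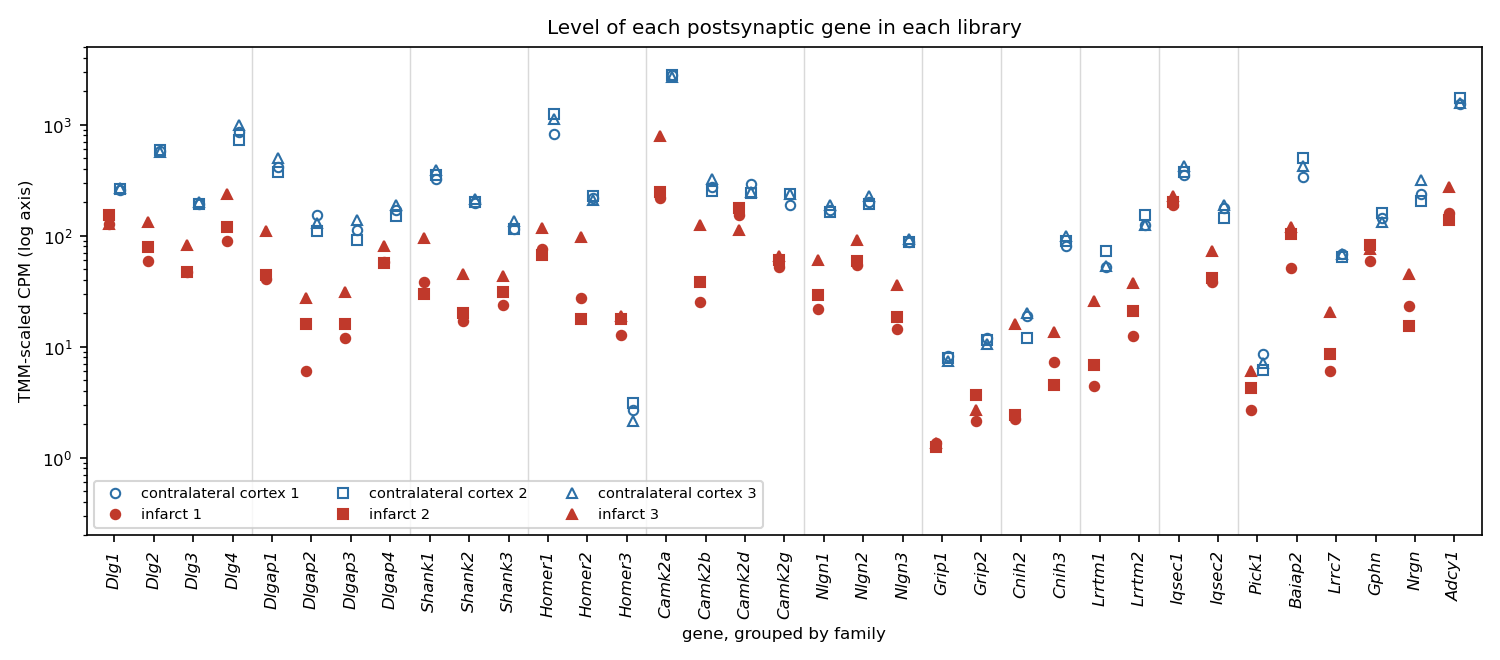
TMM-scaled CPM on a log axis for each of the 35 genes, grouped by family, with filled red symbols for the 3 infarcts and open blue symbols for the 3 contralateral cortices. Red symbols lie below blue ones for 33 genes, *Homer3* is reversed and *Cnih2* overlaps, and infarct 3 (triangle) is the highest infarct for 31 genes.

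*Homer1*, the main *Homer* gene of forebrain neurons and the anchor of group 1 metabotropic glutamate receptors, had the largest fall in the group. It read 75.9, 66.2 and 117 CPM in infarcts and 819.8, 1239.9 and 1116 CPM in contralateral cortices, a 12.2-fold lower level (log2 fold change -3.61, SE 0.27, edgeR adjusted *p* = 2.97e-06). All 3 infarcts lay far below the lowest cortex. Counts per gene do not separate the activity-induced short form, Homer1a, from the long scaffold forms.

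*Homer2*, a long-form paralog, read 27.4, 17.8 and 96.4 CPM in infarcts against 218, 228 and 209.9 CPM (log2 fold change -2.21, SE 0.63, edgeR adjusted *p* = 0.02). Infarcts 1 and 2 were low and infarct 3 intermediate, and that library set the size of the fall: without infarct 3 the log2 fold change was -3.26. Without infarct 1, contralateral cortex 1 or contralateral cortex 3, *Homer2* did not pass (adjusted *p* = 0.108, 0.051 and 0.0515).

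*Homer3*, the paralog best known from cerebellar Purkinje cells, went the other way. It read 12.8, 17.9 and 18.9 CPM in infarcts and 2.66, 3.13 and 2.12 CPM in contralateral cortices, a 6.21-fold higher level (log2 fold change 2.63, SE 0.25, edgeR adjusted *p* = 1.16e-05). The raw counts behind it were 161, 244 and 277 in infarcts and 51, 48 and 23 in contralateral cortices, so each infarct stood above each cortex although its library totals were no larger than those of cortices 1 and 2. Among the infarcts *Homer3* was lowest in infarct 1 and highest in infarct 3, which held 1.23 times the mean of infarcts 1 and 2. The microglia and macrophage list and the fibroblast list were also higher in every infarct, with the sums given above. Oligodendrocyte genes summed to 4498, 5206 and 7200 CPM in infarcts 1, 2 and 3 against 2276 to 2687 CPM in contralateral cortices. Sums of the oligodendrocyte precursor, endothelium, smooth muscle and pericyte, and lymphocyte and plasma cell lists were higher in every infarct too. The part of these cell types in the *Homer3* result was not tested. Exons of *Ddx49* on the opposite strand cover 25.4% of the exon bases of *Homer3* (chr8:70282827-70294361, GRCm38), and the strand setting of the counting is not given in the sources used here. *Ddx49* itself had 120, 92 and 82 counts in infarcts and 121, 89 and 59 in contralateral cortices (log2 fold change 0.31, SE 0.25, edgeR adjusted *p* = 0.296). It did not pass, and its counts in the 2 regions overlapped.

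**Figure D2:**
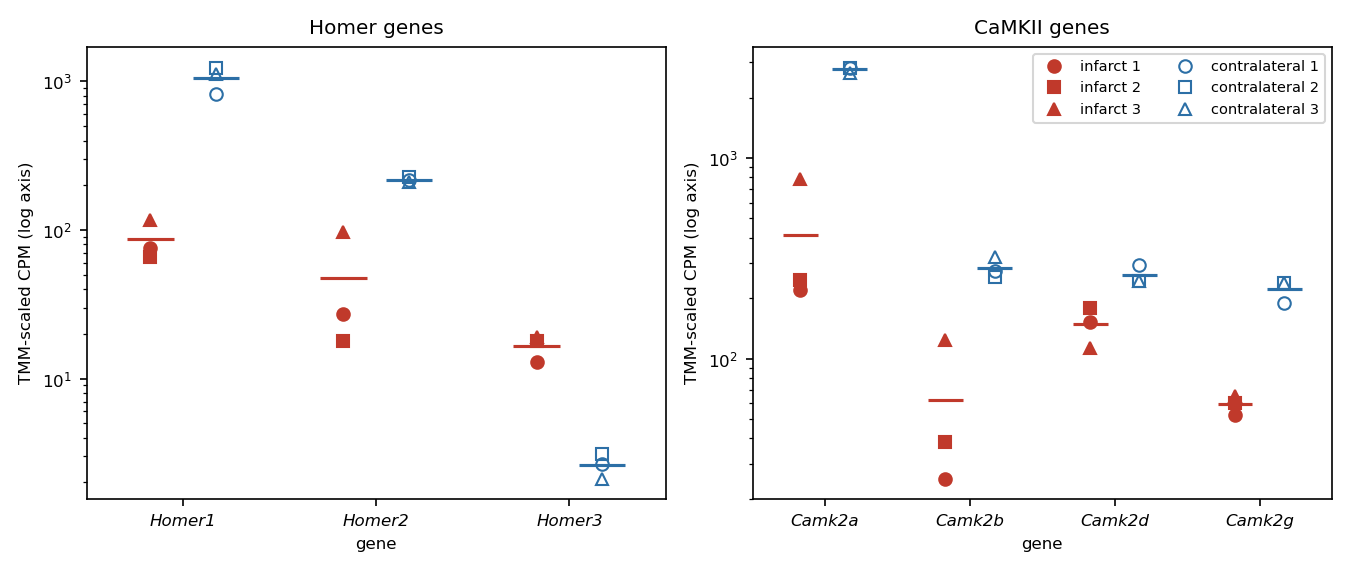
TMM-scaled CPM on log axes of the 3 *Homer* genes (left) and the 4 CaMKII subunit genes (right), with a symbol for each library and a bar at each mean of 3 libraries. *Homer3* is the only gene whose infarcts (12.8 to 18.9 CPM) lie above the contralateral cortices (2.12 to 3.13 CPM), and *Camk2d* is the only CaMKII gene with its lowest infarct level in infarct 3.

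Among the CaMKII subunits, *Camk2a*, the alpha subunit of forebrain excitatory neurons, had the highest level per exon length in the whole group and read 219, 245 and 782 CPM in infarcts against 2807, 2824 and 2665 CPM in contralateral cortices (log2 fold change -2.73, SE 0.51, edgeR adjusted *p* = 0.00222). Infarct 3 held more than infarcts 1 and 2 together, and without it the log2 fold change was -3.56. *Camk2b*, the beta subunit that binds actin, showed the same order of infarcts, with 25.2, 38.2 and 124 CPM against 273, 255 and 321 CPM (log2 fold change -2.18, SE 0.59, edgeR adjusted *p* = 0.0162; -3.14 without infarct 3). It no longer passed when no filter on low counts was used (adjusted *p* = 0.0816).

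The gamma and delta subunits are also widespread outside neurons. *Camk2g* (gamma) was tight within each region, at 52.5, 59.8 and 64.9 CPM in infarcts and 189.6, 239 and 237 CPM in contralateral cortices (log2 fold change -1.91, SE 0.16, edgeR adjusted *p* = 5.22e-06). *Camk2d* (delta) had the smallest fall of the family and read 152, 179 and 113 CPM against 291, 243 and 245 CPM (log2 fold change -0.81, SE 0.19, edgeR adjusted *p* = 0.00361). The regions did not overlap, yet the fall was 1.75-fold. *Camk2d* was lowest in infarct 3, where most of the other genes were highest: that infarct held 0.686 of the mean of infarcts 1 and 2, against a median of 1.93 over the 35 genes. Over infarcts 1, 2 and 3, smooth muscle and pericyte genes, of which 8 of 10 were higher in infarcts, summed to 809, 597 and 563 CPM against 254 to 303 CPM in contralateral cortices. Microglia and macrophage, fibroblast, endothelium, oligodendrocyte precursor, and lymphocyte and plasma cell genes also had their lowest infarct sum in infarct 3. Oligodendrocyte and homeostatic astrocyte sums were highest there, and *Camk2d* itself was highest in infarct 2. The part of these cell types in the *Camk2d* level was not tested.

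Neurogranin and adenylyl cyclase 1 also work through calmodulin. *Nrgn*, which holds calmodulin at resting calcium, read 23.1, 15.5 and 45.3 CPM in infarcts and 237, 204 and 316 CPM in contralateral cortices (log2 fold change -3.17, SE 0.41, edgeR adjusted *p* = 0.00033). *Adcy1*, a cyclase stimulated by calcium and calmodulin, read 159, 138 and 273 CPM against 1536, 1749 and 1551 CPM (log2 fold change -3.08, SE 0.27, edgeR adjusted *p* = 7.65e-06). Both log2 fold changes were larger than that of any CaMKII subunit, their intervals overlapped that of *Camk2a*, and the differences were not tested. Gene-by-gene intervals are drawn in the plot of fold changes.

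**Figure D3:**
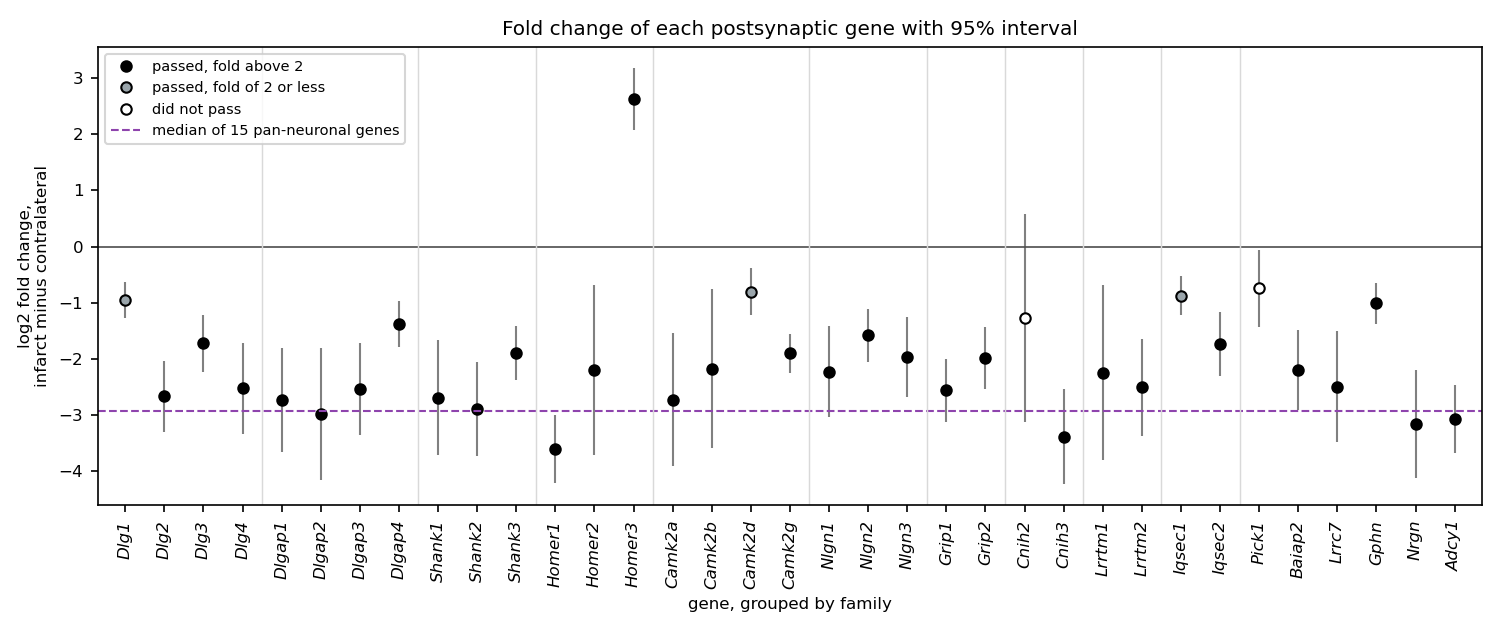
Log2 fold change, infarct minus contralateral, of each of the 35 genes with its 95% interval, grouped by family, filled black where the adjusted p was under 0.05 and the fold above 2, gray where it passed with a smaller fold, and open where it did not pass. The dashed line at -2.94 is the median of 15 pan-neuronal genes, and most genes lie between it and 0.

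All 4 *Dlg* genes fell, by different amounts. *Dlg4*, which encodes PSD-95, the core scaffold for NMDA and AMPA receptors, read 89.9, 121 and 237 CPM in infarcts against 865, 721 and 997 CPM (log2 fold change -2.53, SE 0.35, edgeR adjusted *p* = 0.00031). *Dlg2*, encoding PSD-93, was close to it with 59.7, 78.9 and 134 CPM against 582, 586 and 567 CPM (log2 fold change -2.67, SE 0.28, edgeR adjusted *p* = 3.26e-05). *Dlg3*, encoding SAP102, the form prominent at young synapses, read 47.3, 46.7 and 82.5 CPM against 194, 194 and 199 CPM (log2 fold change -1.73, SE 0.22, edgeR adjusted *p* = 0.000103). *Dlg1*, encoding SAP97, which is also an epithelial polarity scaffold, lost the least, from 259.9, 263 and 267 CPM to 127, 154 and 127 CPM (log2 fold change -0.95, SE 0.14, edgeR adjusted *p* = 0.000258). It passed without reaching a fold change of 2, and unlike *Dlg2* to *Dlg4* its level in infarct 3 was no higher than in infarct 1.

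The *Dlgap* genes encode the guanylate kinase-associated proteins between PSD-95 and SHANK. *Dlgap2* fell most and read 6.05, 16.1 and 27.2 CPM in infarcts against 153, 110.0 and 129 CPM (log2 fold change -2.99, SE 0.49, edgeR adjusted *p* = 0.00142). *Dlgap1* (64.5 ± 38.6 CPM in infarcts against 432 ± 62.7 CPM, SD, n = 3) and *Dlgap3* (19.6 ± 9.92 against 115 ± 23.9 CPM) fell by 2.74 and 2.54 on the log2 scale. For *Dlgap1* the log2 fold change was -3.34 without infarct 3. *Dlgap4* was the mildest, with 57.3, 56.8 and 81.2 CPM against 171, 149 and 189 CPM (log2 fold change -1.38, SE 0.18, edgeR adjusted *p* = 0.000104).

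The master scaffolds *Shank1* and *Shank2* both fell, *Shank1* reading 37.9, 30.0 and 95.1 CPM in infarcts against 322, 349 and 389 CPM (log2 fold change -2.70, SE 0.44, edgeR adjusted *p* = 0.00114; -3.36 without infarct 3) and *Shank2* averaging 27.3 ± 15.2 CPM against 204 ± 9.48 CPM (SD, n = 3; log2 fold change -2.90, SE 0.36, edgeR adjusted *p* = 0.000221). *Shank3*, the paralog whose loss causes Phelan-McDermid syndrome, had the smallest log2 fold change of the 3, with 23.9, 30.8 and 43.2 CPM against 114, 115 and 135 CPM (log2 fold change -1.89, SE 0.21, edgeR adjusted *p* = 4.15e-05). In all 3 genes infarct 3 was the highest of the infarcts and still stood below every contralateral cortex. The difference between *Shank3* and its paralogs is given as a count ratio further on.

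Neuroligins are adhesion proteins that bind presynaptic neurexins across the cleft. *Nlgn1*, found at excitatory synapses, read 22.0, 29.4 and 59.8 CPM in infarcts against 171, 162 and 189.7 CPM (log2 fold change -2.23, SE 0.35, edgeR adjusted *p* = 0.000792). *Nlgn2*, found at inhibitory synapses, read 54.6, 58.7 and 92.1 CPM against 199, 192 and 227 CPM (log2 fold change -1.59, SE 0.21, edgeR adjusted *p* = 0.000108). *Nlgn3*, found at both kinds and in glia, read 14.3, 18.4 and 36.0 CPM against 87.7, 88.0 and 93.6 CPM (log2 fold change -1.97, SE 0.31, edgeR adjusted *p* = 0.000604). The predicted gene *Gm21986* covers 41.2% of the exon bases of *Nlgn3* on the same strand, and the tables tally reads that meet several genes apart from either gene, so the *Nlgn3* level may be understated in both regions.

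The leucine-rich repeat proteins LRRTM1 and LRRTM2 also bind neurexins and promote excitatory synapses. *Lrrtm2* read 12.3, 20.9 and 37.2 CPM in infarcts and 124, 153 and 126 CPM in contralateral cortices (log2 fold change -2.51, SE 0.37, edgeR adjusted *p* = 0.000593). *Lrrtm1* read 4.38, 6.90 and 25.9 CPM against 51.8, 73.4 and 53.1 CPM (log2 fold change -2.25, SE 0.65, edgeR adjusted *p* = 0.0203), with infarct 3 several times above the other infarcts. Without infarct 3 its log2 fold change was -3.38, whereas without infarct 2 or contralateral cortex 2 it did not pass (adjusted *p* = 0.0617 and 0.0509).

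Partners of AMPA receptors split into strong falls and the 2 genes of the group that did not pass. *Cnih3*, a cornichon that slows AMPA receptor gating, read 7.33, 4.48 and 13.6 CPM in infarcts against 81.0, 88.9 and 99.0 CPM, the second largest fall of the group (log2 fold change -3.40, SE 0.37, edgeR adjusted *p* = 7.7e-05). *Cnih2*, its paralog, read 2.23, 2.42 and 16.0 CPM against 18.9, 11.8 and 20.1 CPM, and infarct 3 lay inside the contralateral range (log2 fold change -1.28, 95% interval -3.13 to 0.57, edgeR adjusted *p* = 0.186). Infarcts 1 and 2 were low, and without infarct 3 *Cnih2* passed with a log2 fold change of -2.84 (adjusted *p* = 7.26e-06). It also passed in limma voom (-1.83, adjusted *p* = 0.0446) and with the replicate number as a block (-1.80, adjusted *p* = 0.0327). In the other 11 of 14 alternative fits *Cnih2* did not pass, DESeq2 among them (adjusted *p* = 0.231). The PDZ proteins GRIP1 and GRIP2 tether the GluA2 subunit. *Grip1* read 1.35, 1.25 and 1.36 CPM against 8.25, 7.94 and 7.38 CPM (log2 fold change -2.57, SE 0.25, edgeR adjusted *p* = 1.54e-05) and was nearly equal in the 3 infarcts, and *Grip2* read 2.15, 3.67 and 2.66 CPM against 11.9, 11.5 and 10.6 CPM (3.99-fold lower, SE 0.25 on the log2 scale, edgeR adjusted *p* = 7.33e-05). Both are scarce, with 17, 17 and 20 counts of *Grip1* in the infarcts. *Pick1*, which competes with GRIP for GluA2 and takes receptors inside, read 2.71, 4.26 and 6.07 CPM against 8.67, 6.19 and 7.11 CPM. Its log2 fold change was -0.75 with an unadjusted 95% interval of -1.44 to -0.06 and missed the threshold over all genes (edgeR adjusted *p* = 0.0557). It passed without infarct 3 (adjusted *p* = 0.0111) and in limma voom (0.0392), with RLE size factors (0.0477) and with no filter on low counts (0.042). *Pick1* did not pass in the other 10 of 14 alternative fits, among them DESeq2, library totals and the replicate block. *Gm49486* covers 18.6% of its exon bases on the same strand.

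The remaining scaffolds fell to different depths. *Baiap2*, encoding the actin regulator IRSp53, read 51.1, 104 and 120.3 CPM in infarcts and 339, 499 and 427 CPM in contralateral cortices (log2 fold change -2.20, SE 0.31, edgeR adjusted *p* = 0.000309). *Lrrc7*, encoding densin-180, which binds CaMKII and alpha-actinin, read 5.97, 8.66 and 20.6 CPM against 67.7, 64.5 and 68.4 CPM (log2 fold change -2.50, SE 0.42, edgeR adjusted *p* = 0.0013; -3.17 without infarct 3). IQSEC proteins are exchange factors for the small GTPase ARF6. *Iqsec2*, the X-linked form, read 38.2, 41.6 and 72.3 CPM against 176, 144 and 189 CPM (log2 fold change -1.74, SE 0.25, edgeR adjusted *p* = 0.000244). *Iqsec1* read 190.0, 202 and 229 CPM against 348, 372 and 421 CPM and passed without a fold above 2 (log2 fold change -0.88, SE 0.15, edgeR adjusted *p* = 0.000667). *Gphn*, encoding gephyrin, the scaffold of inhibitory synapses and an enzyme of molybdenum cofactor synthesis in all tissues, read 58.6, 82.0 and 75.9 CPM against 146, 158 and 132 CPM (log2 fold change -1.01, SE 0.16, edgeR adjusted *p* = 0.00041). It stood just beyond a fold of 2 and dropped under it with library totals as scaling, with a minimum of 10 counts, with no filter on low counts, without infarct 1 and without contralateral cortex 2.

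To compare paralogs independently of library scaling, the log2 ratio of their counts was taken within each library, with 0.5 added to each count. There were 31 pairs in 10 families. The ratio did not overlap between infarcts and contralateral cortices in 22 pairs (71.0%), and 74.9% of all pairs of tested genes showed the same, so such shifts were as common among any 2 genes. An exact 2-sided permutation test over 3 and 3 libraries cannot give a *p* under 0.1, which all 22 reached (adjusted *p* = 0.141 over the 31 pairs). Only *Homer1*/*Homer3* and *Homer2*/*Homer3* paired genes of opposite direction. The *Homer1*/*Homer3* ratio went from 8.63 ± 0.38 in contralateral cortices to 2.36 ± 0.41 in infarcts (SD, n = 3), and *Homer2*/*Homer3* from 6.37 ± 0.21 in contralateral cortices to 1.14 ± 1.18 in infarcts (difference -5.23, and -5.83 without infarct 3). In every infarct the *Homer1* count still exceeded that of *Homer3*.

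In the CaMKII family 4 of 6 pairs overlapped between the regions: *Camk2a*/*Camk2b* (exact *p* = 0.2), *Camk2a*/*Camk2g* (0.3), *Camk2b*/*Camk2d* (0.3) and *Camk2b*/*Camk2g* (0.4). The 2 that did not overlap were *Camk2a*/*Camk2d*, which went from 3.42 ± 0.14 in contralateral cortices to 1.26 ± 1.33 in infarcts, and *Camk2d*/*Camk2g*, which went from 0.23 ± 0.34 in contralateral cortices to 1.31 ± 0.43 in infarcts. The *Camk2a*/*Camk2d* log2 ratio was 0.53, 0.45 and 2.79 in infarcts 1, 2 and 3, and its difference, infarct minus contralateral, was -2.16 with and -2.93 without infarct 3. None of the paralog ratios, given above or below, passed the permutation test. *Dlg1*/*Dlg2* went from -1.14 ± 0.04 in contralateral cortices to 0.66 ± 0.64 in infarcts and *Dlg1*/*Dlg4* from -1.70 ± 0.23 in contralateral cortices to -0.02 ± 0.77 in infarcts, while *Dlg2*/*Dlg4* overlapped. *Dlgap2*/*Dlgap4* went from -0.38 ± 0.20 in contralateral cortices to -2.21 ± 0.89 in infarcts. *Shank1*/*Shank3* and *Shank2*/*Shank3* differed by -0.95 and -1.10, infarct minus contralateral. *Iqsec1*/*Iqsec2* was higher in infarcts by 0.91 and *Cnih2*/*Cnih3* by 1.65, the latter highest in infarct 3. *Lrrtm1*/*Lrrtm2* was -1.19 ± 0.11 in contralateral cortices and -1.20 ± 0.59 in infarcts, the smallest difference of all pairs.

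Levels between genes were compared as CPM per kilobase of exon, with SD over 3 libraries. Exon length was that of all annotated exons of a gene merged, not of the transcripts present, and the order of genes depends on it. Exon overlaps with other genes, as in *Homer3*, *Nlgn3* and *Pick1*, were not corrected for. In contralateral cortices *Camk2a* stood highest at 370.4 ± 11.7, followed by *Nrgn* at 174 ± 39.6, *Adcy1* at 129 ± 9.50, *Homer1* at 88.4 ± 18.0, *Baiap2* at 84.4 ± 16.0 and *Dlg4* at 65.0 ± 10.4. *Homer1* and *Baiap2* differed by less than their spread. *Homer3* was the lowest of the 35, at 0.767 ± 0.146. In infarcts *Camk2a* was still first at 55.7 ± 42.6, with a spread close to its mean, while *Gphn* at 19.3 ± 3.24 and *Nrgn* at 19.2 ± 10.7 followed without a difference beyond their spread. In this order *Homer1* stood at place 4 in contralateral cortices and 14 in infarcts, and *Homer3* at place 35 and place 20, at 4.81 ± 0.949 CPM per kilobase.

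Infarct 3 was the highest infarct for 31 of the 35 genes, with *Dlg1*, *Camk2d*, *Grip2* and *Gphn* as exceptions. The share over all tested genes is not given here, so this count is not read as particular to the group. The level in infarct 3 over the mean of infarcts 1 and 2 had a median of 1.93 and reached 6.89 for *Cnih2*, and the same ratio for the pan-neuronal sum was 2.13. The median gene of the group kept 12.5%, 15.5% and 30.8% of its contralateral mean in infarcts 1, 2 and 3, against 7.56%, 10.9% and 19.7% for the pan-neuronal sum. Oligodendrocyte genes, 9 of 10 higher in infarcts, also peaked in infarct 3, with sums of 4498, 5206 and 7200 CPM in infarcts against 2276 to 2687 CPM. Lymphocyte and plasma cell genes went the opposite way, with 2329, 861 and 267 CPM. The part of these cell types in the order of the infarcts was not tested. Without infarct 3 the median log2 fold change of the group was -2.84, and without infarct 1 it was -1.89.

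**Figure D4:**
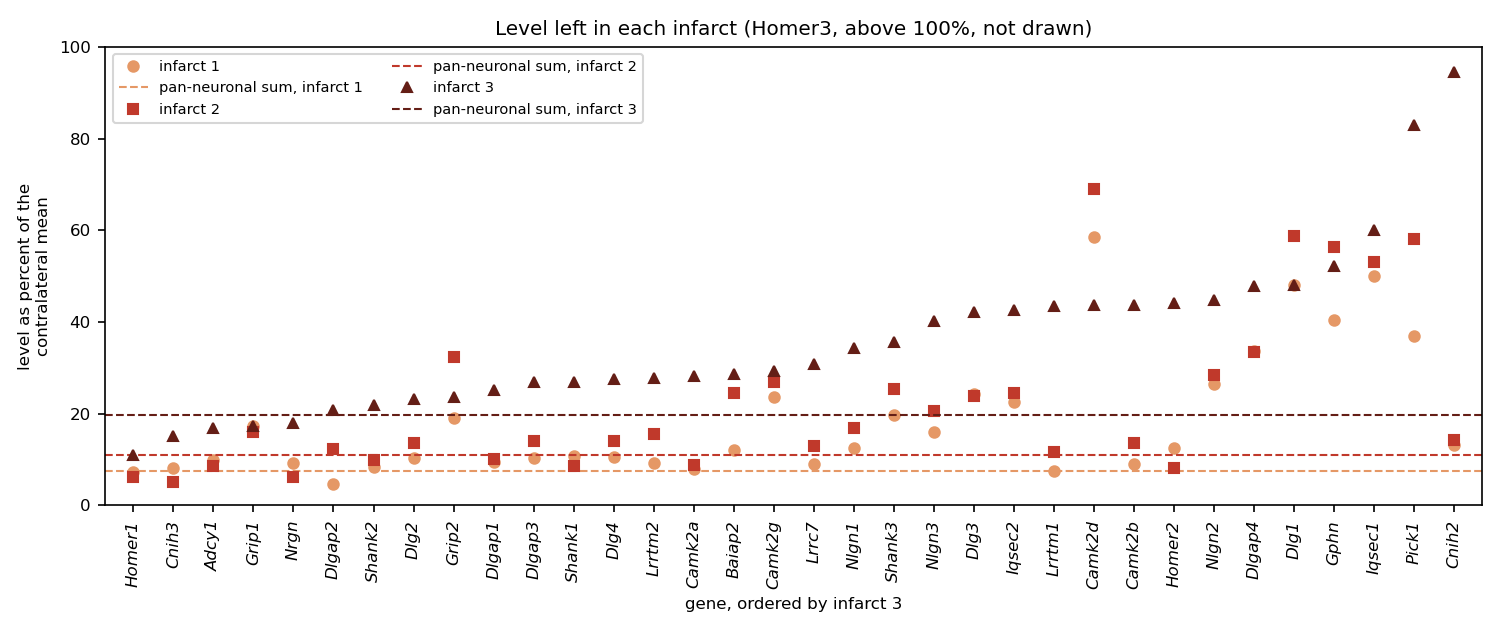
Level of each gene in each infarct as percent of its contralateral mean, ordered by infarct 3, with dashed lines at the same percentage for the summed pan-neuronal genes (7.56%, 10.9% and 19.7% in infarcts 1, 2 and 3). *Homer3* is above 100% and is not drawn. Most symbols lie above the line of their own infarct. Several genes have symbols below it, at the left and also farther right, such as *Homer2* in infarct 2 (8.13%). *Homer1* lies below it in all 3 infarcts (7.17%, 6.26% and 11.1%).

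Each gene was then set against the summed counts of the 15 pan-neuronal genes in the same library. This ratio was higher in every infarct than in every contralateral cortex for 23 of 35 genes (65.7%), lower for 0, and overlapped for 12. Of all tested genes 91.6% were higher and 0.707% lower on this scale, and the median difference in log2 ratio, infarct minus contralateral, was 0.57 for the group and 3.11 over all tested genes. The 12 genes that overlapped were *Dlgap1*, *Dlgap2*, *Shank1*, *Shank2*, *Homer1*, *Homer2*, *Camk2a*, *Grip1*, *Cnih3*, *Lrrtm1*, *Nrgn* and *Adcy1*. *Dlg1*, *Camk2d*, *Iqsec1*, *Gphn* and *Homer3* were among those that lay above. Another denominator, the mean log2 count of the same 15 genes, was chosen after seeing the data. With it 20 genes were higher and 15 overlapped. The median difference was then 0.48 for the group and 3.02 over all tested genes. The share of all tested genes that were higher was not taken on that scale, so these counts are not read as particular to the group.

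Other genes of the same pathways went mostly the same way. They came from 6 lists with 103 genes, all tested, chosen with earlier results of these data known. Of these, 79 passed lower and 7 higher, against 30.8% and 34.2% of all tested genes. With a fold above 2 the counts were 77 and 3, against 20.9% and 25.7% of all tested genes. Counts for each list below also required a fold above 2. Of 25 other postsynaptic scaffold genes 18 were lower with a fold above 2 and 0 higher, with *Begain* (-3.32), *Arhgap32* (-3.04) and the kalirin gene *Kalrn* (-3.01) lowest in log2 fold change. *Tanc1* (log2 fold change 0.88, SE 0.16) and *Cttn* (log2 fold change 0.45, SE 0.16), encoding the actin-binding cortactin, were higher without reaching a fold of 2. Of 16 partners of AMPA receptors and GRIP 10 were lower and 0 higher with a fold above 2. The falls were led by *Olfm3* (-3.92), *Cacng2*, which encodes stargazin (-3.65), and *Cacng3* (-3.46). *Ppfia1*, a liprin found in many tissues, passed higher without reaching a fold of 2 (log2 fold change 0.72, SE 0.14).

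Of 22 postsynaptic adhesion genes 21 were lower, from *Lrrtm3* (-3.58) and *Lrrtm4* (-3.34), paralogs of *Lrrtm1* and *Lrrtm2*, to *Lrfn4* (-1.14). Of 9 inhibitory postsynapse genes 7 were lower, among them *Slitrk3* (-2.97), an adhesion gene of inhibitory synapses, and 1 was higher, *Dag1* (log2 fold change 1.09, SE 0.15), encoding dystroglycan, which also anchors glial endfeet and other cells to matrix. Of 24 calmodulin and CaMKII signaling genes 19 were lower and 0 higher, led by *Rasgrf2* (-3.73), the CaMKII inhibitor gene *Camk2n1* (-3.50) and *Camk4* (-3.45). The 8 other adenylyl cyclases did not share 1 direction: *Adcy2* (-2.21), *Adcy8* (-2.05), the other calcium-stimulated neuronal form, and *Adcy9* (-1.16) were lower, while *Adcy7*, prominent in immune cells, was higher at 229.0 ± 25.2 CPM against 18.6 ± 1.71 CPM (log2 fold change 3.62, SE 0.16) and *Adcy4* was higher with a log2 fold change of 1.72.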

How the data were processed

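The deposited files hold raw whole-number counts per Ensembl gene, 1 table for each of the 3 infarct and 3 contralateral libraries. Per the paper's methods and the processing notes, the authors made stranded mRNA libraries, demultiplexed paired reads with bcl2fastq 2.19, trimmed them with Trimmomatic 0.32, aligned them to GRCm38 with STAR 2.5.2b and counted them with htseq-count, whose version and strand setting are not given in the sources used here. The 5 tallies without a gene were left out, and 65.7% to 73.4% of tallied reads fell on genes. Of 46078 identifiers, 45229 were found in GENCODE M21.

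Counts were fitted over all genes in R 4.3.3 with edgeR 4.0.16 (filterByExpr by region, TMM scaling, robust glmQLFit and glmQLFTest, region as the only term) and adjusted with the Benjamini-Hochberg method over 15554 genes. A gene passed at an adjusted *p* under 0.05 and was also counted by a fold change above 2. The fitted biological coefficient of variation was 0.220. SE is the absolute log2 fold change over the square root of F, and intervals are 95%. Libraries of a region differed by more than counting noise, so none was a repeat deposit. The procedure was tested on simulated data.

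The 35 genes, 6 pathway lists and 13 cell type lists were chosen with earlier results of these data known. All 35 could be named, and of each pathway list at most the 3 largest and 3 smallest log2 fold changes among genes that passed. Some list genes that entered these counts are not reported here by name. *Insyn2a* was matched through its older symbol, *Fam196a*. Hippocampus and striatum lists (5 and 6 genes) summed to 518 to 689 and 36.1 to 121 CPM in infarcts against 571 to 591 and 189 to 202 CPM in contralateral cortices. Excitatory neuron, inhibitory neuron, homeostatic astrocyte, oligodendrocyte precursor and endothelium lists had median log2 fold changes of -2.71, -2.40, -0.38, 0.49 and 0.67.

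Alternatives were DESeq2 1.42.0, limma 3.58.1 voom, RLE size factors, library totals, no filter on low counts, at least 10 counts in every library, glmTreat against a fold of 2, the replicate number as a block, a pseudocount of 5 for count ratios and each library left out. A further alternative, the mean log2 denominator, was chosen after seeing the data. Tables and plots used Python 3.11.15, pandas 2.3.3, SciPy 1.17.1 and matplotlib 3.10.9.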

Additional observations from a re-analysis of the deposited data

How the results depend on the processing

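The direction of all 35 genes was kept under every alternative. Genes lower with a fold above 2 numbered 25 to 31 over the alternatives (29 as reported) and 27 to 31 with a library left out, those that passed lower 30 to 34 and 31 to 34, and *Homer3* was the 1 gene higher throughout. No filter on low counts, or glmTreat against a fold of 2, removed *Camk2b*, *Gphn*, *Homer2* and *Lrrtm1* from the calls. Library totals moved the median of all genes by 0.20 and the share of higher calls from 55.1% to 62.1%, and removed *Gphn*. The median log2 fold change of the group was -2.50 with limma voom, where *Cnih2* was gained, and ranged from -2.84 to -1.89 with a library left out. Over all genes, calls without a low-count filter numbered 4661 higher and 3619 lower, against 3999 and 3256. Whether equal replicate numbers mark 1 mouse is unknown, and deviations of same-numbered libraries correlated at -0.19, 0.10 and 0.001. With the replicate block, 30 genes were lower and 1 higher with a fold above 2, *Cnih2* was gained (adjusted *p* = 0.0327), and the median was -2.51. Paralog count ratios that did not overlap numbered 22 to 26, with 26 of 31 of 1 sign in every numbered pair under the block. Any pair of genes meets the rule more easily with a library left out, or with the sign rule of the block. The share over all pairs of tested genes was taken for the reported setting only, so no rise is read from these counts. For pathway genes 69 to 81 were lower (77 as reported) and 2 to 4 higher (3 as reported). The 3 libraries of each region leave paralog ratios without a *p* under 0.1.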
